A study of Homo sapiens with 16 samples.

Results

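The histone genes on the arrays were followed over the 8 combinations of line, treatment and time in LP-1, a human multiple myeloma cell line. They were chosen by name alone, as every probe whose RefSeq accession leads to a current symbol that begins with H1-, H2AC, H2BC, H3C or H4C. This gave 85 probes of 73 genes among the 20503 gene symbols on the array. After the filter on signal, 81 probes of 70 histone genes were tested, among 33725 probes and 16394 symbols. The filtered genes H2BC1, H1-8 and H2AC25 were not well above background on both arrays of any condition, and the protein-coding genes H4C14, H3C14, H2AC18 and H2BC12L had no matched probe. By family, 11 linker histone (H1), 16 H2A, 17 H2B, 12 H3 and 14 H4 genes were tested, of which 55 lie on chromosome 6 and 9 on chromosome 1. The antisense RNA H1-10-AS1 and the pseudogenes H1-9P and H2AC2P met the naming rule and are among the 70 genes.

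Histones package DNA. A nucleosome is a core of H2A, H2B, H3 and H4 wrapped in DNA, and H1 binds the linker between cores. Most genes named here belong to clusters that are switched on together when a cell copies its DNA in S phase, so that new histones match new DNA. Their mRNA is known for ending in a stem-loop in place of a poly(A) tail, with SLBP bound to the stem-loop. Variants such as H1-10 and the genes of the H2AZ and H3-3 names are made outside S phase too, from ordinary polyadenylated mRNA. The arrays were labelled from 200 ng of total RNA with a kit that primes on the poly(A) tail, so a signal from a clustered histone gene reports the RNA that could be primed in this way and is not a measure of its total mRNA. In bulk RNA, fewer cells in S phase and less histone mRNA per cell cannot be told apart. Several histone genes are nearly identical in their coding sequence, so that a probe may also detect a close relative.

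LP-1-cIAP2-eGFP cells overexpress cIAP2 (an inhibitor of apoptosis protein) from a lentiviral vector with eGFP, and control cells (LP-1-eGFP) carry the same kind of vector without cIAP2. Each line is 1 transduced population, sorted for eGFP. Treatment was 10 nM bortezomib, a proteasome inhibitor, or none, for 6 h or 24 h. Each of the 8 conditions had 2 biological replicates, 16 single-colour Agilent arrays in all, and this number limits the precision. The plasma cell markers SDC1, TNFRSF17, CD38, XBP1, MZB1 and JCHAIN were well above background on all 16 arrays and PRDM1 on 15, whereas the epithelial marker CDH1 was so on 0 arrays and EPCAM on 2. Among the genes fixed as markers of other cell types, KRT8 was well above background on 16 arrays, CD2 on 15, CD14 and CD68 on 13, CD3D on 12 and CD3E on 10.

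One array stood apart before any comparison was made. The first replicate (replicate 1) of the 24 h bortezomib condition in LP-1-cIAP2-eGFP had a median log2 signal of 3.18 and 35.5% of its spots well above background, against medians of 5.73 to 6.64 and shares of 49.0% to 71.1% on the other 15 arrays. The difference between the replicates of its condition had an SD of 1.48 (log2) over all probes and 0.77 over the histone genes, against at most 0.77 and 0.62 in the other 7 conditions. It is called the dim array below. Where leaving it out changes a family's or list's count of called genes for bortezomib at 24 h in its line, both counts are given. The same holds for the call of a gene named for that comparison. The arrays were spread over 2 slides, with 6 LP-1-cIAP2-eGFP and 2 LP-1-eGFP arrays on slide 1 and the reverse on slide 2.

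The promoters of histone genes are shown first, because the genes are compared by family below and the families differ in these letters. The 150 bases before the RefSeq start (GRCh38.p14, 5′ to 3′ on the strand of the gene) are printed for 1 gene of each of the 5 families that is described below, and for H2BC7, which fell most of the H2B genes. They were picked after their values were seen, and 4 motifs are in capitals. These are the TATA box (TATAAA), the CCAAT box on either strand, the octamer (ATGCAAAT) on either strand and the H1 box (AAACACA) on either strand.
H1-3 (chr6:26234988-26235137, - strand): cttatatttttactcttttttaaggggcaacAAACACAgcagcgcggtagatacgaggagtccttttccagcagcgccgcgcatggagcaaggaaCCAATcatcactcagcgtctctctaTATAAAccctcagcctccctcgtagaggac
H2AC13 (chr6:27808023-27808172, + strand): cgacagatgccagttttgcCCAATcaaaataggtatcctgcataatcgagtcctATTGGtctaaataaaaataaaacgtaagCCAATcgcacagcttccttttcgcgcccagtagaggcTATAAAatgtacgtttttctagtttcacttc
H2BC12 (chr6:27146859-27147008, - strand): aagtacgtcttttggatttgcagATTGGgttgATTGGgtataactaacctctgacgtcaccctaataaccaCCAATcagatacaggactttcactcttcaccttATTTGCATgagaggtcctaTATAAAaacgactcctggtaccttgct
H2BC7 (chr6:26199366-26199515, + strand): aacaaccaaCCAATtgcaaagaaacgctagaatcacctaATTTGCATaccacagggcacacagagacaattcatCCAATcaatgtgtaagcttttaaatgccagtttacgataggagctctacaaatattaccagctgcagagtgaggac
H3C3 (chr6:26045234-26045383, + strand): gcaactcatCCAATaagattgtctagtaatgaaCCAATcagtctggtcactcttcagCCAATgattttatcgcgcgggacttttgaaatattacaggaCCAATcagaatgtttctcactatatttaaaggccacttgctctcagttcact
H4C13 (chr6:27873535-27873684, - strand): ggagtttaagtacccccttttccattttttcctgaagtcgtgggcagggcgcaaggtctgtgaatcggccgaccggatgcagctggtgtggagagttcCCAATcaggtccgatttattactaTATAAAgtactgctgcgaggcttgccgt
Promoters were matched for 61 of the 70 genes, and the letters were counted in the 250 bases before the start, on both strands except for TATAAA, which was read on the strand of the gene. TATAAA stood in 57.4% of the histone promoters against 7.17% of 27305 promoters in the RefSeq table. CCAAT was found in 83.6% against 33.0%, in all H2A, H2B and H3 promoters and in 3 of 12 of those of H4, H4C13 among them. The octamer, the motif that H2B promoters are known for, was present in 76.5% of H2B and 78.6% of H2A promoters, in 0% of H1 and H4, and in 1.66% of all promoters. Of 10 H3 promoters only that of H3C4 held it, and RefSeq starts H3C4 at the base where the H2A gene H2AC7 starts, so that this window is counted under both families and the other 9 H3 promoters held none. The windows of neighbouring H2A and H2B genes that point away from each other also overlap. The H1 box was present in 87.5% of the H1 promoters, in 0% of the other 4 families and in 4.95% of all. Matches to different motifs overlapped in 0 of the 61 promoters. A match describes letters and was not tested for binding.

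At 24 h, most histone genes fell with bortezomib in control cells. Of the 70 genes, 48 were called lower (over 2-fold, with a limma p under 0.05 after Benjamini-Hochberg adjustment) and 0 higher, whereas 8.44% of all tested genes were called lower and 6.7% higher. The median difference, bortezomib minus untreated, was -1.38 on the log2 scale over the histone genes and -0.04 over all genes, and 65 of the 70 lay below 0. In LP-1-cIAP2-eGFP 19 genes were called lower and 2 higher, against 13.9% and 7.66% of all tested genes, with a median of -0.76 against -0.16 and 57 of 70 below 0. Without the dim array, 20 were called lower (15 of them among the 19) and 1 higher, and 56 of 70 lay below 0. The median was then -0.74 against -0.01 for all genes, of which 9.81% were called lower. All 19 genes called lower in LP-1-cIAP2-eGFP were also called lower in LP-1-eGFP, where 29 further genes were called. With array weights, which discount both arrays of the condition that holds the dim array, the count of genes called lower in that line was 7 (H1-10, H2AC13, H2BC7, H2BC9, H2BC12, H2BC13 and H3C1), and of genes called higher 1. With 75th percentile scaling 28 were called lower there and 49 in LP-1-eGFP. The comparisons of the 2 lines share no array.

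**Figure D1:**
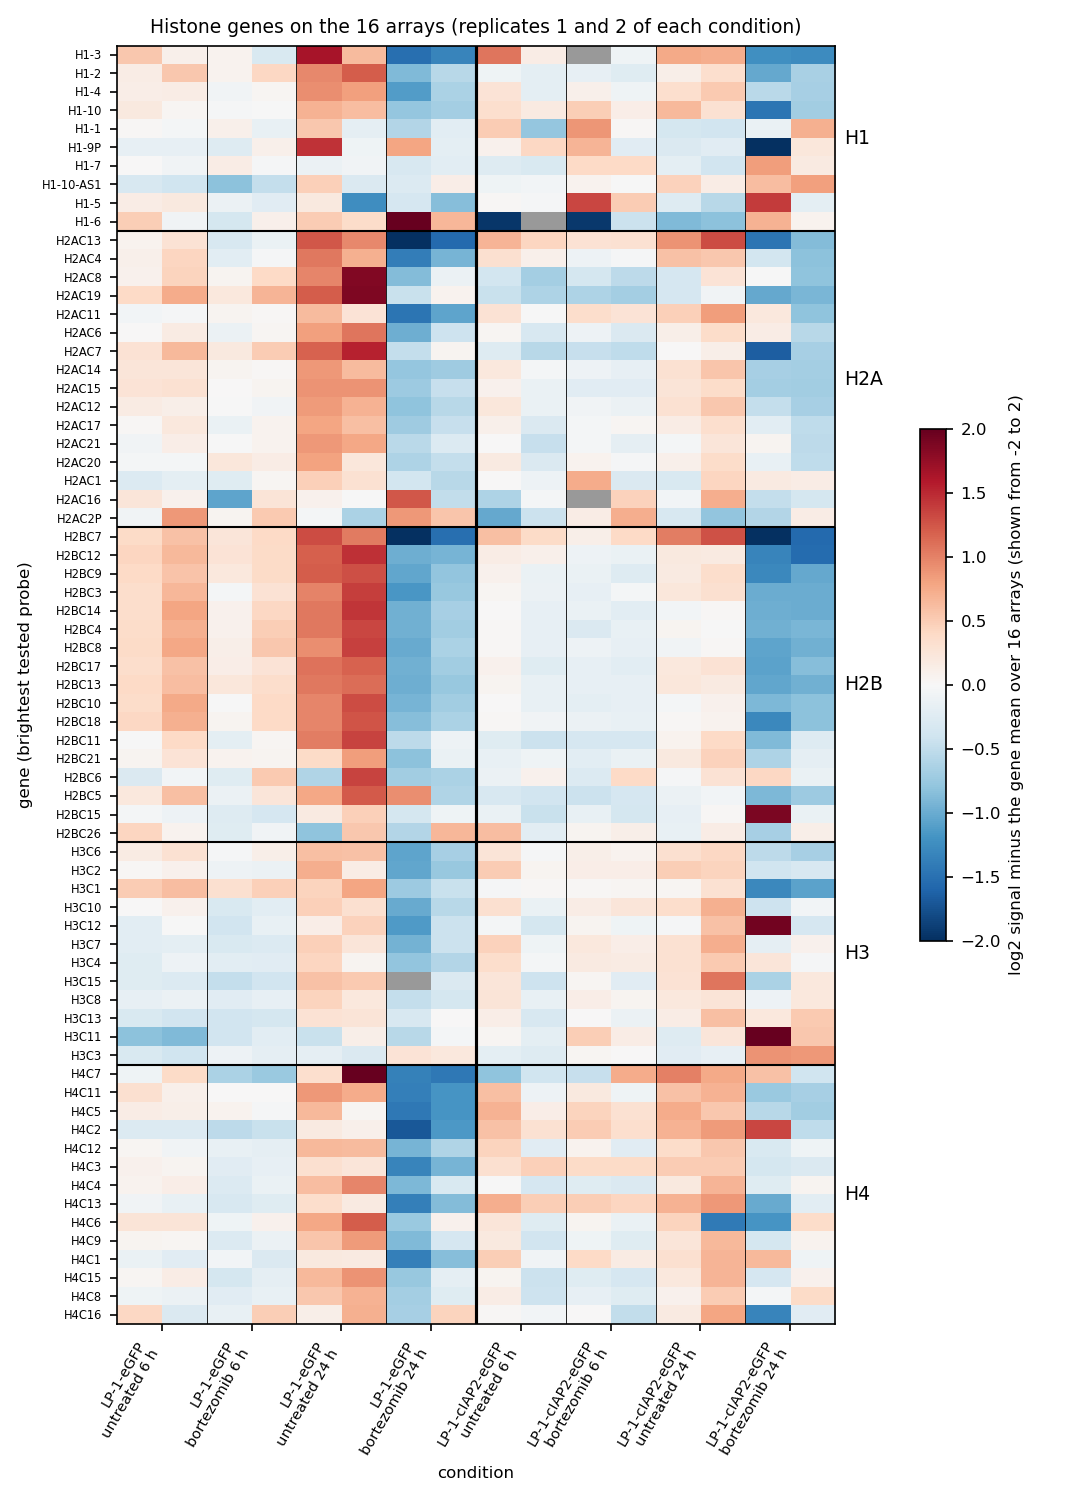
Log2 signal of 69 of the 70 tested histone genes (rows, by family and by their 24 h difference in LP-1-eGFP) on the 16 arrays (columns, 2 per condition), each gene minus its mean over the arrays. Grey cells have no usable spot. The columns of untreated LP-1-eGFP at 24 h are mostly red and those of bortezomib at 24 h mostly blue in both lines, with 48 genes called lower in control cells and 19 in LP-1-cIAP2-eGFP.

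Among the linker histones, members inside and outside the clusters fell. H1-2, H1-3 and H1-4 are S phase linker histones of the chromosome 6 cluster. H1-2 read 17.20 and 17.46 (log2 signal) on the untreated LP-1-eGFP arrays at 24 h and 15.37 and 15.68 with bortezomib, and 16.36 and 16.57 against 15.22 and 15.59 in LP-1-cIAP2-eGFP. The arrays did not overlap in either line, and the differences were -1.80 (SE 0.21, adjusted p = 0.000307) and -1.06 (SE 0.21, adjusted p = 0.00456). Without the dim array the latter was -0.88 (adjusted p = 0.0228), under the fold limit and no longer called. H1-3 fell further, from 15.63 and 14.61 to 12.48 and 12.65 in LP-1-eGFP (-2.55) and from 14.73 and 14.70 to 12.76 and 12.72 in LP-1-cIAP2-eGFP (-1.98). H1-4 changed by -1.76 and -1.03, and the second call was lost without replicate 2 of the untreated (-0.95) or of the bortezomib arrays (-0.97) of its comparison. H1-10, a linker variant that is encoded outside the clusters, on chromosome 3, fell by 1.38 and 1.56, the first not called with normexp background correction (adjusted p = 0.103). H1-1 and H1-5, also of the chromosome 6 cluster and named after their values were seen, were not called in either line. H1-1 gave -0.57 and 0.65 (1.07 without the dim array, not called), and H1-5 was well above background on 7 arrays. Over the H1 family, 5 of 11 genes were called lower in LP-1-eGFP (median -0.57, and -0.30 with normexp) and 4 in LP-1-cIAP2-eGFP (3 without the dim array), where the family median was -0.69 but -0.37 with normexp, 0.33 with 75th percentile scaling and 0.22 without the dim array. The testis linker gene H1-6, named after its values were seen, was well above background on 7 arrays, none of them of LP-1-cIAP2-eGFP. In LP-1-eGFP at 24 h it read 5.06 and 4.92 untreated and 8.05 and 5.22 with bortezomib, and was not called (adjusted p = 0.219).

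Among the core histones, H2A and H2B had the largest medians in LP-1-eGFP. H2A makes a dimer with H2B before both enter the nucleosome, and 13 of 16 H2A genes were called lower there (median -1.49). H2AC13 read 11.93 and 11.65 untreated and 8.54 and 9.14 with bortezomib in LP-1-eGFP, and 11.59 and 11.99 against 9.23 and 9.82 in LP-1-cIAP2-eGFP. The fall was beyond the spread of the replicates in both lines, with differences of -2.95 (SE 0.26, adjusted p = 6.79e-05) and -2.27 (SE 0.26, adjusted p = 0.000212). The brightest H2A probes, of H2AC21, H2AC20 and H2AC17, changed less (-1.22, -1.06 and -1.28 in LP-1-eGFP, all called, and -0.33, -0.57 and -0.60 in LP-1-cIAP2-eGFP, none called). Without the dim array the latter were -0.62, -0.75 and -0.76, again none called. The H2AC20 call was lost without replicate 1 of either LP-1-eGFP condition at 24 h (-0.78 and -0.99). Of the H2A genes, 4 passed as lower in LP-1-cIAP2-eGFP (median -0.76, and -0.50 with normexp), and 6 without the dim array (median -0.76). In that line 13.9% of all genes were called lower, and 9.81% without the dim array. The share in LP-1-eGFP was 8.44%.

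Of the 17 H2B genes, 13 were called lower in control cells (median -1.95) and 7 in LP-1-cIAP2-eGFP (median -0.97, and -0.61 with normexp), or 6 without the dim array. The shares of all tested genes called lower were 8.44% and 13.9%, or 9.81% without the dim array. H2BC12 read 16.18 and 16.45 untreated and 14.01 and 14.06 with bortezomib in LP-1-eGFP, and 15.18 and 15.16 against 13.67 and 13.44 in LP-1-cIAP2-eGFP. Its replicates lay close together and the differences were -2.28 (SE 0.15, adjusted p = 1.85e-05) and -1.61 (SE 0.15, adjusted p = 5.84e-05). H2BC7 fell most of these genes, from 10.75 and 10.47 to 6.81 and 7.94 in LP-1-eGFP (-3.24, SE 0.33, adjusted p = 0.000147) and from 10.47 and 10.70 to 7.37 and 7.89 in LP-1-cIAP2-eGFP (-2.96, SE 0.33, adjusted p = 0.00018). H2BC9 (-2.16 and -1.42), H2BC3 (-2.14 and -1.26) and H2BC13 (-1.95 and -1.20) were called lower in both lines, H2BC3 in LP-1-cIAP2-eGFP not with array weights (adjusted p = 0.148). H2BC15, named after its values were seen, lay between 10.20 and 11.12 on 15 arrays and at 12.53 on the dim array.

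H3 genes did not all move one way. In LP-1-eGFP 5 of 12 H3 genes were called lower (median -0.99), against 8.44% of all genes. In LP-1-cIAP2-eGFP 1 was called lower and 2 higher (median -0.43), against 13.9% and 7.66% of all genes. Without the dim array 2 were lower and 1 higher, with 9.81% of all genes lower. H3C1 fell in both lines, by 1.20 and 1.35 (by 0.87 and not called in LP-1-cIAP2-eGFP with normexp background correction). It and H3C3 were named after their values were seen. H3C2 changed by -1.34, which was called, and by -0.83, which was not called. The H3C13 probe, brightest of the family, gave -0.42 and -0.00, and H3C15 gave -0.85 and -0.88 with 1 of its bortezomib arrays in LP-1-eGFP lacking a usable spot. Without the dim array H3C13 gave 0.15 and H3C15 -0.46 in LP-1-cIAP2-eGFP, neither called. H3C3 moved the other way. It read 13.98 and 13.86 untreated and 14.42 and 14.37 with bortezomib in LP-1-eGFP, and 13.92 and 13.98 against 15.06 and 15.02 in LP-1-cIAP2-eGFP, with 13.75 to 14.20 on the 8 arrays of 6 h. The rise was called in LP-1-cIAP2-eGFP (1.09, SE 0.12, adjusted p = 0.00015, and 1.07 without the dim array) but not with 75th percentile scaling (0.83) or normexp background correction (0.73), and stayed under the fold limit in LP-1-eGFP (0.47, adjusted p = 0.0173). H3C11 was the other H3 gene called higher in LP-1-cIAP2-eGFP (1.39, SE 0.46, adjusted p = 0.0483), from 7.53 and 8.05 to 10.01 on the dim array and 8.34 on its replicate, and was not called without the dim array (0.55, adjusted p = 0.265) or with the replicate block, the slide block, array weights, the authors' normalized values, no filter on signal, the mean of a gene's probes, or any other single array left out except the replicate of the dim array.

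By their brightest probes all 14 H4 genes lay below 0 in LP-1-eGFP, where 12 were called lower (median -1.39), against 3 in LP-1-cIAP2-eGFP (median -0.61). Of all genes 8.44% and 13.9% were called lower. Several of the calls in LP-1-eGFP rested on single arrays. Besides H4C2 and H4C7, those of H4C1 (-1.03), H4C8 (-0.86), H4C9 (-1.04) and H4C15 (-0.95) were lost without bortezomib replicate 1. These 4 genes were named after their values were seen. H4C1 was also not called with normexp or the mean of its probes (-0.37), and its other probe gave 0.55. H4C3 read 18.23 and 18.14 untreated and 16.59 and 16.98 with bortezomib in LP-1-eGFP (-1.40, SE 0.15, adjusted p = 0.000167), and 18.42 and 18.41 against 17.55 and 17.62 in LP-1-cIAP2-eGFP (-0.83, adjusted p = 0.00244, under the fold limit). H4C13 fell by 1.38 and 1.40. The first was not called with normexp (adjusted p = 0.139), and the second was 1.00 and not called without the dim array. H4C2 was called in LP-1-eGFP (-1.56, adjusted p = 0.038), a call that was lost with the slide block, with no filter on signal and without any single array other than those of bortezomib-treated LP-1-cIAP2-eGFP at 24 h. It read 15.41 on the dim array against 13.56 on its replicate, so that its difference in LP-1-cIAP2-eGFP was -0.36 with and -1.28 without that array, the latter called. H4C7 was not well above background on either bortezomib array of LP-1-eGFP at 24 h, and was at least 2.18-fold lower there (adjusted p = 0.0111), with untreated replicates as far apart as 4.79 and 6.94. That call was lost with normexp (adjusted p = 0.0955) and without either bortezomib array or untreated replicate 2 (adjusted p = 0.0543, 0.0557 and 0.0613).

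**Figure D2:**
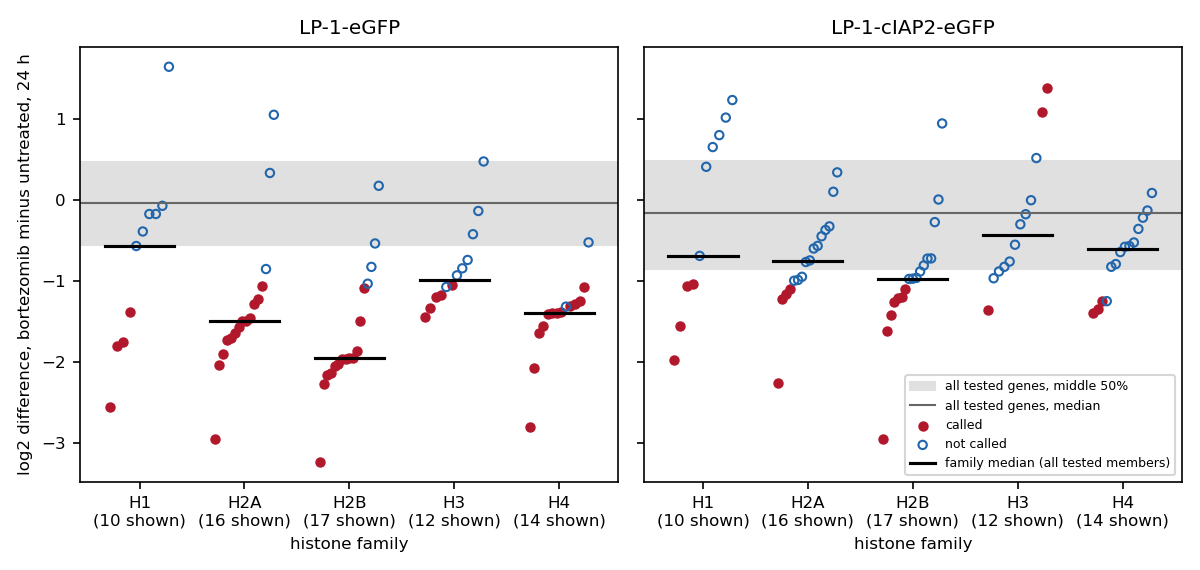
Log2 difference between bortezomib and untreated arrays at 24 h for 69 of the 70 tested histone genes (points, sorted within their family), in LP-1-eGFP (left) and LP-1-cIAP2-eGFP (right), with the median over all tested members of a family as a black bar and the median and middle 50% of all tested genes in grey. Filled points were called. In LP-1-eGFP the medians run from -0.57 (H1) to -1.95 (H2B), and in LP-1-cIAP2-eGFP from -0.43 (H3) to -0.97 (H2B).

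**Figure D3:**
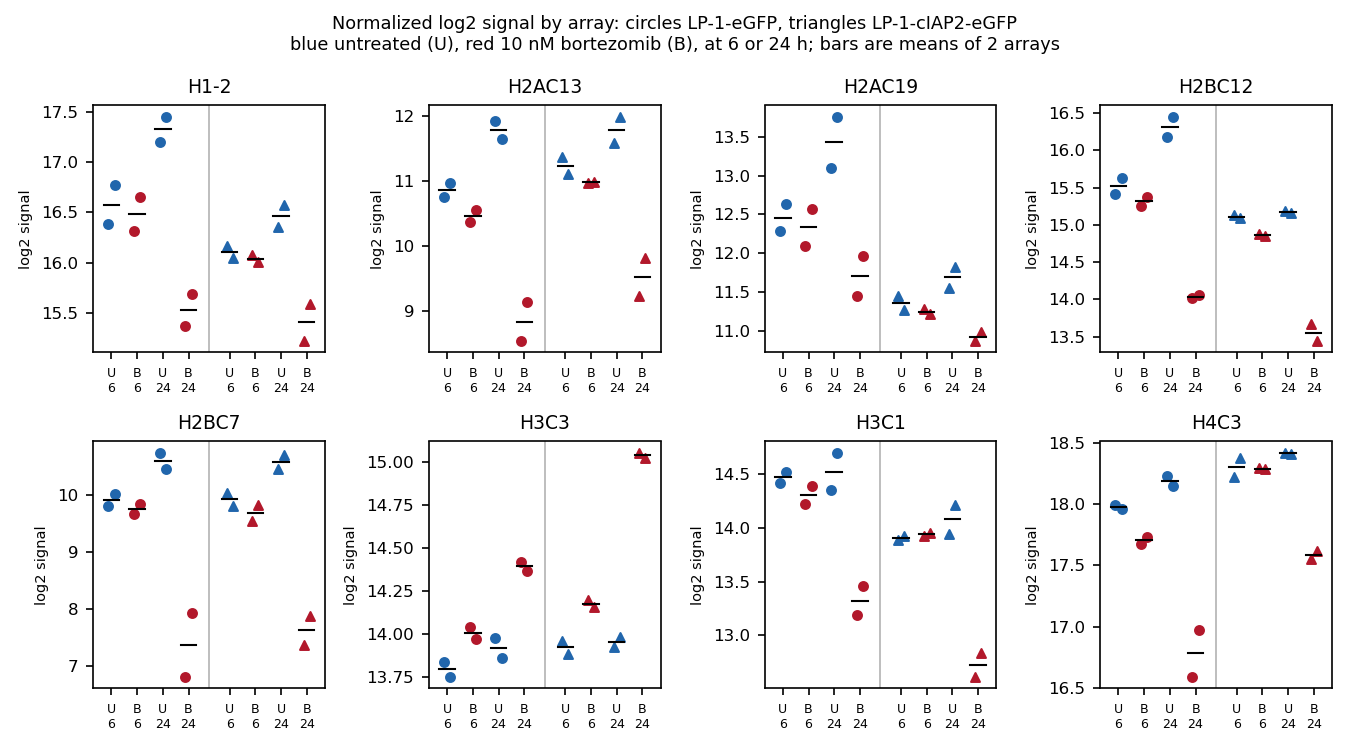
Normalized log2 signal of 8 histone genes on each of the 16 arrays (points), with the mean of the 2 replicates as a bar. Each panel has its own vertical axis, and levels of different genes are not comparable. H1-2, H2AC13, H2BC12, H2BC7, H3C1 and H4C3 were lowest with bortezomib at 24 h in each line, and H3C3 was highest there (15.06 and 15.02 in LP-1-cIAP2-eGFP).

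The conditions were also compared array by array. At 24 h the untreated and bortezomib arrays of LP-1-eGFP did not overlap for 61 genes, 58 of them lower with bortezomib, while 34.6% of all genes were lower without overlap. In LP-1-cIAP2-eGFP 47 were lower and 7 higher without overlap, against 36.2% and 26.3% of all genes. Without the dim array, a setting chosen for these counts after the data were seen, 54 were lower and 9 higher, against 43.6% and 42.9%. On the 4 bortezomib arrays of 24 h together, 25 of the 66 histone genes measured on every array read below all 12 other arrays, and 1 read above them (H3C3), against 14.5% and 9.78% of all genes (29 and 1, against 16.1% and 14.5%, without the dim array). Within slides, the median difference was -1.20 in LP-1-eGFP (slide 2, 1 bortezomib and 2 untreated arrays, 63 of 70 genes below 0) and -0.65 in LP-1-cIAP2-eGFP (slide 1, 2 and 1 arrays, 56 of 70 below 0). The all-gene median in LP-1-cIAP2-eGFP was 0.10 with 75th percentile scaling in place of -0.16, with -0.78 for the histone genes. For the 10 genes with further probes, 10 of the 11 other probes had the direction of the brightest probe in control cells and 9 in LP-1-cIAP2-eGFP, and the call was shared by 7 and 6. H2BC18, named after its values were seen, had opposite calls. It is among the 19 genes called lower in LP-1-cIAP2-eGFP (-1.10). A further probe of it was also called lower there (-1.02), but another was called higher (1.53, limma adjusted p = 0.0246). With the mean of its probes it gave -0.20, not called.

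Genes that share a promoter region did not always have like values. In 9 places the starts of neighbouring genes lay within 500 bases and pointed away from each other. H2BC8 and H2AC8, 233 bases apart, changed by -1.96 and -1.90 in LP-1-eGFP at 24 h, and H2BC4 and H2AC6 by -2.02 and -1.65. H2BC13 and H2AC13, 244 bases apart, changed by -1.95 and -2.95, and the windows of 150 bases before their starts overlap. H2BC7 changed by -3.24, and H2AC7 and H3C4, which share a RefSeq start 223 bases away, by -1.57 and -0.93. The genes of the pairs that the rule for named genes did not select were named after their values were seen.

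At 6 h, no histone gene was called in either line. In LP-1-eGFP 0.409% of all genes were called lower and 1.21% higher at 6 h, and in LP-1-cIAP2-eGFP 0.165% and 0.781%. The histone medians were -0.18 and -0.04 (-0.12 and 0.04 with 75th percentile scaling), with 59 and 43 of the 70 genes below 0, and 0 and 2 genes had an unadjusted p under 0.05, against 2564 of 16394 and 2152 of 16388. H2BC12, for example, read 15.41 and 15.63 untreated and 15.25 and 15.37 with bortezomib in LP-1-eGFP. The drug was active by then. Of 10 tested heat shock genes, which respond to unfolded protein, 7 were called higher at 6 h and 8 at 24 h in both lines, led by the inducible chaperone gene HSPA6 (8.88 and 7.19 at 6 h, 9.37 in both lines at 24 h) and including BAG3, HSPA1B and DNAJB1.

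In untreated cells the histone median was higher at 24 h than at 6 h, though no single histone gene was called. The 24 h arrays were compared with the 6 h arrays over both lines, and 0 histone genes were called, as were 0.0122% of all genes in either direction. The median difference was nevertheless 0.43 over the histone genes and -0.01 over all genes, 65 of the 70 genes were higher at 24 h, and 42 of the 70 had an unadjusted p under 0.05, against 953 of 16388. After each gene was centred on its mean over the arrays, the median histone gene stood at 0.08 and 0.13 on the untreated LP-1-eGFP arrays of 6 h and at 0.65 and 0.69 on those of 24 h. In LP-1-cIAP2-eGFP it stood at 0.08 and -0.15 at 6 h and at 0.19 and 0.37 at 24 h. With bortezomib at 24 h it stood at -0.85 and -0.55 in control cells and at -0.50 and -0.45 in the other line, below every 6 h array. The untreated LP-1-eGFP arrays of 24 h were thus the highest of the 16, and the response to bortezomib at 24 h is measured from them in that line.

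**Figure D4:**
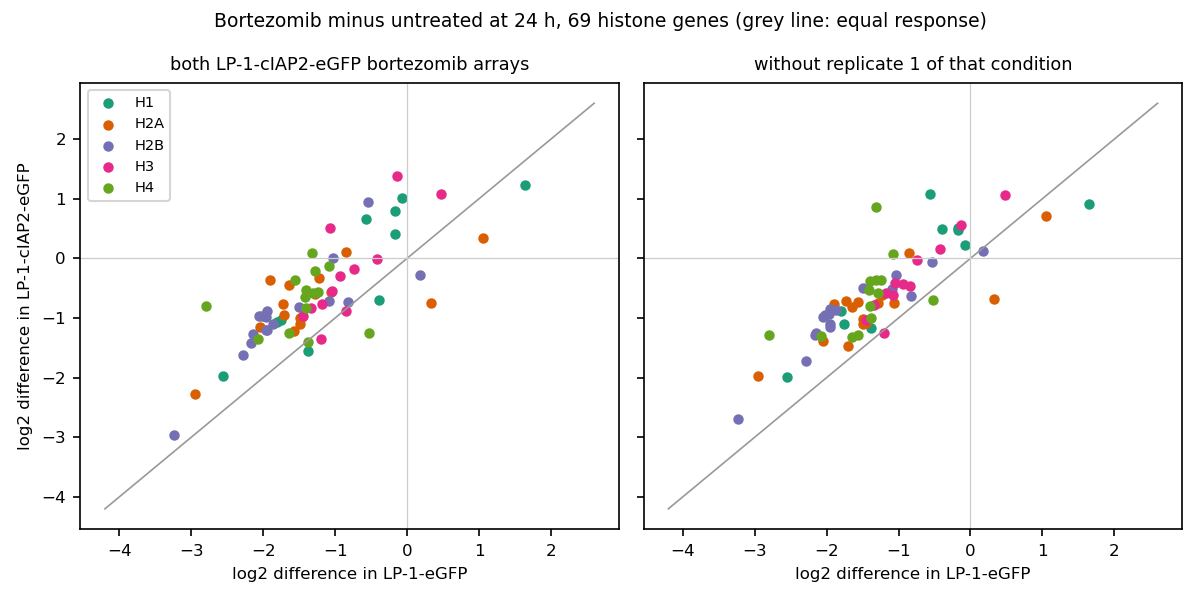
Bortezomib minus untreated at 24 h (log2) in LP-1-eGFP (horizontal axis) and LP-1-cIAP2-eGFP (vertical axis) for 69 of the 70 histone genes, coloured by family, with both LP-1-cIAP2-eGFP bortezomib arrays (left) and without the dim array (right). Most points lie above the grey line of equal response, where the fall in LP-1-eGFP was larger, and the median difference of the responses over all 70 was 0.71 (left) and 0.65 (right).

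The difference between the lines in this response was itself tested, and 0 histone genes were called at 24 h (limma, adjusted p under 0.05), as were 0.104% of all genes in either direction. At 6 h 0 histone genes and 0% of all genes were called. The median difference of the 24 h responses, LP-1-cIAP2-eGFP minus LP-1-eGFP, was 0.71 over the histone genes and -0.13 over all genes (0.72 and 0.03 with 75th percentile scaling). An unadjusted p under 0.05 was reached by 31 of the 70 histone genes and by 1428 of all 16394. Without the dim array the medians were 0.65 and 0.01, with 29 histone genes at an unadjusted p under 0.05. With the dim array as the lone array of its condition, that is without replicate 2, 19 histone genes were called, as were 27.9% of all genes. For single genes the difference was 0.67 for H2BC12 (SE 0.21, adjusted p = 0.477), 0.68 for H2AC13 (SE 0.37, adjusted p = 0.633) and 0.58 for H4C3 (SE 0.21, adjusted p = 0.551). A smaller fall in LP-1-cIAP2-eGFP is therefore not shown for any single histone gene.

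The lines differed in few histone genes by the rule of the line comparison, which averages over treatment and time and asks for an adjusted p under 0.001 and for untreated lines that differ by over 2-fold. By it 2 histone genes were lower with cIAP2 and 0 higher, against 2.43% and 0.958% of all genes. Among the lower genes, H2AC19, a clustered H2A gene of chromosome 1, read 12.28, 12.63, 13.10 and 13.76 on the untreated LP-1-eGFP arrays and 11.45, 11.27, 11.56 and 11.82 on those of LP-1-cIAP2-eGFP. Its difference was -1.18 (SE 0.13, adjusted p = 0.000262). Within the slides it was -0.82 and -1.08, but there the arrays of the 2 lines differed in treatment and time. Those values therefore do not separate line from treatment. The call of H2AC19 was lost with 75th percentile scaling, normexp, the slide block and array weights. It was also lost on leaving out either 6 h array of untreated or bortezomib-treated LP-1-cIAP2-eGFP, replicate 1 of its untreated arrays at 24 h, or replicate 2 of either LP-1-eGFP condition at 6 h, with the adjusted p then just above the limit. Counting by an adjusted p under 0.05 without a limit on the fold gave 20 histone genes that were lower in LP-1-cIAP2-eGFP and 10 that were higher, against 12.7% and 9.03% of all genes.

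These smaller differences went by family. Of the H2B genes, 12 of 17 were lower by this count and 0 higher (median -0.51), among them H2BC12 (-0.62, adjusted p = 0.000322), H2BC9 (-0.56) and H2BC13 (-0.51). Of the H4 genes 5 of 14 were higher and 0 lower (median 0.14), H4C3 (0.48, adjusted p = 0.00153), H4C13 (0.62) and H4C2 (1.03, adjusted p = 0.0133) included. Among H3 genes 4 were higher and 1, H3C1 (-0.49), was lower (median 0.28). Of the H2A genes 4 were lower and 0 higher. Of the H1 genes 3 were lower, among them H1-6, which was well above background on no LP-1-cIAP2-eGFP array. The 1 higher in the H1 family was the antisense RNA H1-10-AS1, named after its values were seen. These values average over treatment. Between the untreated lines alone the median was -0.74 for H2B, 0.10 for H3 and -0.05 for H4. At an adjusted p under 0.05, 18 of the 70 histone genes were lower there and 0 higher, against 6.58% of all genes lower and 4.19% higher. The 18 were 11 H2B, 4 H2A and 2 H1 genes and 1 H3 gene (H3C1, -0.50). A higher level of H3 or H4 genes with cIAP2 is thus not shown in untreated cells. The averaged medians of H2B, H3 and H4 kept their signs with 75th percentile scaling, normexp background correction (0.08 for H4) and the authors' normalized values. Without the dim array 12 H2B genes were lower, and 6 H3 and 4 H4 genes higher, by the count without a fold limit. Of all genes 15.3% were then lower and 15.5% higher. Where a gene had further probes, 6 of the 11 other probes had the direction of the brightest probe in the line comparison, and that of H4C13 read -0.15. Within slides 1 and 2 the family medians were -0.17 and -0.36 for H2B, 0.56 and 0.24 for H3, and 0.57 and 0.13 for H4. Each slide held only 2 arrays of 1 of the lines. As for H2AC19, the mix of treatments and times was not the same for the lines within a slide. These medians therefore cannot tell a difference between the lines from an effect of treatment or time.

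Other genes of chromatin and S phase were taken from lists outside the naming rule. Of 9 tested histone variants, 4 were called lower with bortezomib at 24 h in LP-1-eGFP (median -0.90) and 7 in LP-1-cIAP2-eGFP (median -1.16), or 4 lower and 1 higher without the dim array. Of all genes 8.44% and 13.9% were called lower. CENPA, the H3 variant of centromeres, gave -1.75 and -3.21 (-2.68 without the dim array), H2AZ2 gave -1.33 in both lines, and H2AJ -1.40 and -1.05, all called. H3-3A, which with H3-3B encodes the H3 that is deposited independently of replication, gave -0.87, not called, and -1.16, called but not without the dim array (-0.92). H3-3B gave 0.57 and 0.76, neither called, and 1.02 without the dim array, which was called. Of 30 tested DNA replication genes, 6 were called lower in each line (5 in LP-1-cIAP2-eGFP without the dim array) and 0 higher, with medians of -0.59 and -0.63 (8.44% and 13.9% of all genes lower). TYMS (-1.44 and -1.62), the enzyme of thymidylate synthesis, was called in both lines, as were UHRF1 (-1.42 and -1.31), which maintains DNA methylation after replication, and GINS1 (-1.08 and -1.97, or -1.60 without the dim array), a subunit of the replicative helicase. TK1 (-0.80 and -0.82) and MCM7 (-0.50 and -0.55) stayed under the fold limit. The part of these S phase values in the histone result was not tested.

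The machinery that transcribes histone genes and trims their mRNA was taken as a list of 20 tested genes. At 6 h 1 of them was called lower in LP-1-eGFP (CCNE1, cyclin E, -1.02), against 0.409% of all genes. At 24 h 1 was called higher and 2 lower in control cells, and the counts in LP-1-cIAP2-eGFP were 1 and 3, against 8.44% and 13.9% of all genes called lower. Without the dim array 1 was higher and 2 lower in that line, and the median moved from -0.20 to -2e-04. CDK2, the cyclin E partner kinase, was called lower in both lines (-1.08 and -1.12), CCNE2 in control cells (-1.17), and LSM11, a part of the U7 particle that cuts histone pre-mRNA, in LP-1-cIAP2-eGFP (-2.50, SE 0.73), but not without the dim array (-0.97). CPSF2 was at least 1.40-fold lower in LP-1-cIAP2-eGFP, where it was not well above background with bortezomib. LSM10, the partner of LSM11, rose by 1.19 in LP-1-eGFP, and TUT7, which adds uridines to RNA ends, rose by 1.14 in LP-1-cIAP2-eGFP. SLBP itself gave 0.63 and 0.28 at 6 h and -0.30 and -0.54 at 24 h, and was not called. Of 21 histone chaperones and assembly factors, 3 were called lower at 24 h in control cells and 4 in LP-1-cIAP2-eGFP (also 4 without the dim array), against 8.44% and 13.9% of all genes. ASF1B, which hands new H3 and H4 to the replication fork, was called in both lines (-1.19 and -1.57), as was the importin IPO4 (-1.02 in control cells, and in LP-1-cIAP2-eGFP -0.85 and not called without the dim array), while RBBP4 was called in control cells (-1.01), and in LP-1-cIAP2-eGFP only without the dim array (-0.99 with and -1.13 without it), and SUPT16H, a subunit of the chaperone FACT, in LP-1-cIAP2-eGFP (-1.65). NPM1 (-0.14 and -0.23) and NASP (-0.28 and -0.46) were not called.

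**Figure D5:**
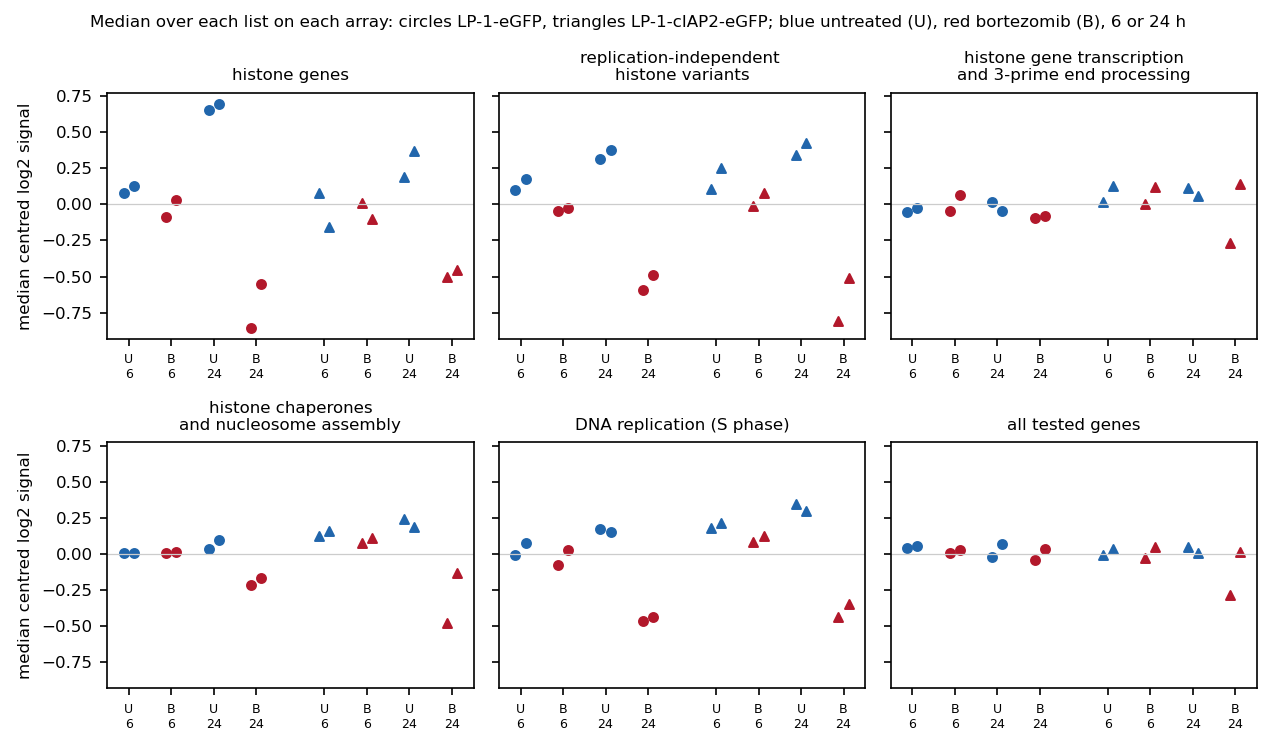
Median centred log2 signal of 5 gene lists and of all tested genes on each array (circles for LP-1-eGFP, triangles for LP-1-cIAP2-eGFP, blue untreated, red bortezomib). Histone genes run from 0.69 (untreated LP-1-eGFP at 24 h) to -0.85 (bortezomib at 24 h), while the median of all genes stays within 0.07 of 0 on every array except the dim one (-0.28).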

How the data were processed

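Expression was measured on 16 single-colour Agilent arrays (50599 gene probes). Per the file headers, the deposited intensity values came from Agilent Feature Extraction 10.7.3.1, background-corrected for each spot and not yet normalized. The log2 table of the authors, quantile normalized in their methods and centred by probe, was used as an alternative. Here, flagged spots were left out, the log2 values of each probe's spots were averaged, and arrays were quantile normalized with limma 3.58.1 in R 4.3.3. A probe was tested if 1 or more conditions had it well above background on both arrays. Names came from RefSeq accessions (28174 probes, 55.7%, matched 20503 symbols), and promoter sequences from the RefSeq table of GRCh38.p14. A gene is represented by its tested probe of highest mean signal, and a fold against a group with no array well above background is a lower bound, taken from the faintest signal that passed on each array.

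Each condition had its own mean (lmFit, contrasts.fit, eBayes, prior degrees of freedom 1.61), and p-values were adjusted over all tested probes by Benjamini-Hochberg. For a difference between the lines' responses the limit was an adjusted p of 0.05 with no fold, and for time it was the limit used for bortezomib. The fit and the call rule were run on simulated arrays with planted changes and independent noise of the same spread on every array. Those arrays held no dim array and no slide effect, so the run checks the code and not the calls in these data. Some named-gene results are not reported here, though counts and medians include those genes. Replicate numbers did not pair the arrays (28 correlations of deviations, -0.11 to 0.24), so no block was used. The members, the lists and the alternatives were chosen with earlier results of these data known. Named histone genes are the 3 of highest mean signal in each family and up to 8 called genes of largest difference in each contrast, and named genes of other lists are the 3 of highest signal and up to 3 called genes in each bortezomib contrast, with exceptions stated. Alternatives were 75th percentile scaling, normexp (offset 50), the authors' values, 2 other filters on signal, the mean over probes, replicate and slide blocks, array weights, other call rules and each array left out.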

Additional observations from a re-analysis of the deposited data

How the results depend on the processing

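The 71 histone calls of all comparisons were each recomputed with the alternatives that refit the model. None changed its direction, and 1661 of the 1768 values kept their side of the threshold while the rest lost the call. Some medians changed sign. With 75th percentile scaling the histone median became 0.04 in LP-1-cIAP2-eGFP at 6 h (and 0.12 and 0.01 without untreated replicate 1 or bortezomib replicate 2 of that comparison), 0.02 for the line comparison (-0.02 otherwise, and 0.00 to 0.01 without 3 single arrays) and 0.33 (from -0.69) for H1 genes in LP-1-cIAP2-eGFP at 24 h, and the all-gene medians became 0.10 there and 0.03 for the difference of response. The median difference of response at 6 h, 0.13, was -0.015 without LP-1-cIAP2-eGFP untreated 6 h replicate 2. The 48 histone genes called lower at 24 h in LP-1-eGFP were 42 to 50 under the other settings and 37 to 49 with 1 array left out (37 without LP-1-eGFP bortezomib 24 h replicate 1). The median over all 70 genes was -1.54 with 75th percentile scaling and -1.58 to -1.20 with 1 array left out, and 1 gene was called higher without a fold limit and 0 to 1 with 1 array left out. In LP-1-cIAP2-eGFP at 24 h, 7 genes were called lower with array weights and 32 without a fold limit, and the median was -0.58 with normexp. The 2 genes called higher there were 1 with normexp, the authors' values, no filter, the mean over probes, the replicate block, the slide block and array weights, and 1 to 6 with 1 array left out. The 6 came without LP-1-cIAP2-eGFP bortezomib 24 h replicate 2, which leaves the dim array alone for its condition, and 19 histone genes and 27.9% of all genes were then called for the difference of response at 24 h (0 to 19 over the arrays left out, and 1 with normexp). The median of that difference was 0.58 to 0.87 with 1 array left out. In the line comparison, 1 gene was called lower with 75th percentile scaling, normexp, the slide block and array weights and 1 to 3 with 1 array left out, 1 was called higher by the 2-group test (unadjusted p under 0.005), and 20 were lower and 10 higher without a fold limit. With the replicate block 48 genes were called lower at 24 h in control cells and 19 in LP-1-cIAP2-eGFP, which changed no other call count than the 1 above. Where 1 array was left out, its lone replicate was assumed to vary like the other conditions. The causes of these changes were not tested. Probes well above background on few arrays (H4C7 on 6, H1-6 on 7) limit what can be said of low levels.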
